A study of Mus musculus with 23 samples.

Results

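Gene expression was compared between 4 cerebellar tumours that had arisen in mice with a germline disruption of Ptch1 (Ptch1+/- tumours) and 4 samples of normal adult cerebellum. These are 8 of the 23 samples of the series, which was chosen to set tumours induced by CRISPR/Cas9 beside established mouse models of medulloblastoma (MB). Samples were assigned to these groups by their titles, and no measured value entered the assignment. RNA was measured on Affymetrix whole-genome mouse arrays, on which each probe set reads the transcripts of a gene, and all levels below are log2 values after robust multi-array averaging (RMA). Each gene was read by its brightest probe set, judged by the mean of all 23 arrays. Every difference is a log2 difference of Ptch1+/- tumours minus adult cerebellum unless another group is named, so that a difference of 1 is a 2-fold higher level.

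The Ptch1+/- mice were heterozygous for the disruption in every cell, and which Ptch1 allele they carried is not given in the sources used here. The labels give the strain of all 8 samples as CD1, and neither the age nor the sex of the mice, nor whether animals were pooled. A further pair of groups of the series served as a reference. The first was 3 samples of granule neuron precursors (GNPs) taken from normal cerebellum between postnatal days 4 and 7, and the second was 5 tumours of the MERP model, in which Ptch1 is deleted after birth in cells that express Atoh1 (Math1). An adult cerebellum holds no external granule layer and is a mixture of neurons and glia, so the comparison sets a tumour beside a whole tissue and not beside its cells of origin. In bulk samples, fewer cells of a type cannot be told apart from less RNA per cell. Nothing in the sources says whether the samples of a group came from separate mice, so p-values measure the spread between these samples.

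Sonic hedgehog (SHH) is secreted by Purkinje cells in the young cerebellum and drives granule neuron precursors to divide before they mature. Its receptor PTCH1 holds the membrane protein SMO inactive until SHH binds, after which SMO signals through the primary cilium and the GLI transcription factors switch on targets such as Gli1, Mycn, Ccnd1 and Ptch1 itself. Loss of PTCH1 leaves the pathway on without ligand, and MB of the SHH subgroup arises from precursors in this state.

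In all, 53.2% of the 18194 genes measured differed at an adjusted p under 0.05 (limma, Benjamini-Hochberg), 4067 higher in the tumours (22.4% of all genes) and 5607 lower (30.8%). Every count of list members higher or lower than in adult cerebellum is to be read beside these shares. Differences were large at both ends, with 689 genes at least 4-fold higher and 1240 at least 4-fold lower, and 31 and 45 at least 64-fold. The 4 tumours lay wholly above the 4 adult cerebella for 4222 genes (23.2%) and wholly below them for 5704 (31.4%). The balance of directions rested on the scaling: tumours had a gene median of 7.04 ± 0.13 (SD, n = 4) and adult cerebella of 7.35 ± 0.03 (SD, n = 4) (exact permutation test, two-sided, p = 0.0286, the smallest p that 4 against 4 allows). Centring each array on this median moved the median difference from -0.03 to 0.28, and 7273 of 11333 changed genes were then higher (64.2% in place of 42.0%). Differences of this size or less therefore have no settled direction.

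The arrays also differed in quality measures. The gap between 3′ and 5′ probe sets of the Actb and Gapdh controls, which widens when RNA is degraded, averaged 1.23 in tumours (0.99 to 1.53) and 0.52 in adult cerebellum (0.48 to 0.54; exact permutation p = 0.0286). With this gap as a covariate, an alternative chosen after seeing the data, 8071 genes differed in place of 9674. Tumours varied more than adult cerebella, with a median SD per gene of 0.208 and 0.093. Defining markers matched the labelled tissue: the Purkinje gene Pcp2, the granule neuron gene Gabra6 and the myelin gene Mobp lay between 12.52 and 14.15 in every adult cerebellum. Where a group mean was at or under 4.55, the highest lower quartile of the 8 arrays, it is called near background, and the difference may then understate the true ratio. Of the genes named, this held in the tumours for 12, namely Calb1, Gad1, Vsnl1, Crtam, Scube2, Tfap2b, Ermn, Mog, Slc4a1, Cd3g, Hey2 and Wif1. In adult cerebellum it held for 17, namely Sfrp2, Aspm, Cenpf, Esco2, Scube2, Atoh1, Cxcr4, Kif2c, Cdkn2a, E2f7, Eda2r, Pmaip1, Cd3g, Fosb, Egr2, Robo2 and Birc5. Probe sets of a gene often differed in size of effect: of 117 changed genes named that had several, 66 had another with under 50% of the difference given, and 14 had another of opposite sign.

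Ptch1 was not lower in the tumours by the probe set with the strongest signal. Its level was 11.84, 11.50, 12.26 and 11.80 in tumours 1 to 4 and 11.97, 11.96, 12 and 11.88 in adult cerebella 1 to 4. The groups overlapped, and the difference of -0.10 (SE 0.19) did not pass the test (adjusted p = 0.705). The other 2 probe sets of Ptch1 were dimmer and both pointed up, the first by 1.79 (SE 0.44, adjusted p = 0.00176 over all probe sets) and the second by 0.30 (adjusted p = 0.0571). Because it is not given which exons were disrupted or where these probes lie, and because Ptch1 is itself induced by the pathway, its level does not check the genotype. It was lower than in MERP tumours by its brightest probe set, at -1.19 (adjusted p = 5.93e-05).

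Of the 14 measured ligands, receptors and inhibitors of the SHH pathway, 8 were higher, 3 were lower and 3 did not pass, with a median difference of 0.83 against -0.03 over all genes. Smo, which encodes the signal transducer that PTCH1 restrains, read 11.88, 11.69, 11.43 and 11.63 in the tumours and 8.38, 8.32, 8.29 and 8.46 in adult cerebellum. The groups lay far apart, and the difference was 3.29 (SE 0.25, adjusted p = 2.31e-10). Sufu, the cytoplasmic inhibitor of GLI proteins, was higher by 3.03 (SE 0.18), whereas its 2 other probe sets gave 0.31 and 0.32. Boc, a co-receptor for SHH, was higher by 1.96 (SE 0.19), and Gas1, which also helps SHH to bind, by 0.79 (SE 0.16). Gpr161, a ciliary receptor that restrains the pathway, was higher by 1.87 (SE 0.21), the ciliary kinesin Kif7 by 1.0 (SE 0.18) and Disp1, needed for ligand release, by 0.87 (SE 0.16).

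The decoy receptor Hhip, a target of the pathway, showed the widest spread among these genes. Its level was 9.53 in tumour 1 and 7.54, 8.02 and 7.63 in tumours 2 to 4, above the 6.35 to 6.88 of adult cerebellum. The difference of 1.52 (SE 0.49, adjusted p = 0.0116) became 1.07 without tumour 1 (adjusted p = 0.0622). Its 3 other probe sets gave 1.44 to 1.87, and tumour 1 was the highest in each.

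Shh itself was lower, at 4.87, 4.95, 4.61 and 5.07 in the tumours and 8.90, 8.87, 8.79 and 8.75 in adult cerebellum. The difference was -3.95 (SE 0.19, adjusted p = 1.35e-13), although a second probe set gave -0.37. Genes of Purkinje cells, the source of SHH in the cerebellum, were lower in the same tumours, and whether the decreases were linked was not tested. Dhh and Ihh, the other hedgehog ligands, overlapped between the groups, at -0.14 (adjusted p = 0.311) and 0.25 (adjusted p = 0.163). Cdon, a co-receptor related to Boc, was lower at -3.24 (SE 0.31), although its second probe set gave -0.04. Scube2, which aids ligand release, was near background in both groups (-0.44, adjusted p = 0.0242) and lost its call when tumour 1 was left out (-0.41, adjusted p = 0.0554), as it did without tumour 3 (-0.36) or adult cerebellum 4 (-0.39).

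Among 19 transcription factors and targets of the pathway, 12 were higher and 4 lower, with a median difference of 1.66. Gli1, the factor most tightly induced by SHH, was at 10.71, 9.85, 10.42 and 10.39 in tumours 1 to 4 and at 6.22, 5.96, 6.09 and 6.01 in the adult cerebella. It was 19.3-fold higher (4.27, SE 0.22, adjusted p = 7.16e-13), and Gli2, the main activator, was 18.8-fold higher (4.23, SE 0.20). Gli3, which acts mostly as a repressor, went the other way at -1.05 (SE 0.36, adjusted p = 0.0164). Its call was lost without tumour 1 (-0.87, adjusted p = 0.0611), on centring (-0.74, adjusted p = 0.0713) and with the 3′ to 5′ gap as a covariate (-0.48, adjusted p = 0.432).

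Mycn, which carries the SHH signal to the cell cycle in precursors, reached 12.03, 12.23, 11.96 and 12.30 in the tumours against 6.57, 7.13, 6.78 and 7.05 in adult cerebellum. This 38-fold difference (5.25, SE 0.20, adjusted p = 2.96e-15) was smaller on its other probe sets, at 2.32 and 0.26. The cyclin genes Ccnd2 and Ccnd1 were higher by 6.36 (SE 0.19) and 2.60 (SE 0.20), and their partner Cdk6, a kinase that starts the cell cycle, by 6.99 (SE 0.43). Cdk6 read 12.27 to 12.49 in the tumours and 4.76 to 5.64 in adult cerebellum. Sfrp1, a secreted WNT antagonist induced in SHH tumours, was 123-fold higher (6.94, SE 0.36). Atoh1, the factor that defines granule neuron precursors, was higher by 5.85 (SE 0.27) and near background in adult cerebellum (4.29 to 4.67). The Polycomb gene Bmi1 (1.66, SE 0.14) and the mitotic factor Foxm1 (1.40, SE 0.11) were higher too. Eya1, a phosphatase and co-activator, was lower at -2.28 (SE 0.44), while its 2 other probe sets gave -0.16 and 0.52. Also lower were Nkx2-2 at -1.91 (SE 0.24) and Prdm6 at -0.54 (SE 0.13). Igf2 (-1.69, adjusted p = 0.0504) and Pdlim3 (0.24, adjusted p = 0.788) did not pass, although Igf2 did without tumour 2 (-1.91, adjusted p = 0.0454) or tumour 3 (-1.93, adjusted p = 0.043).

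**Figure D1:**
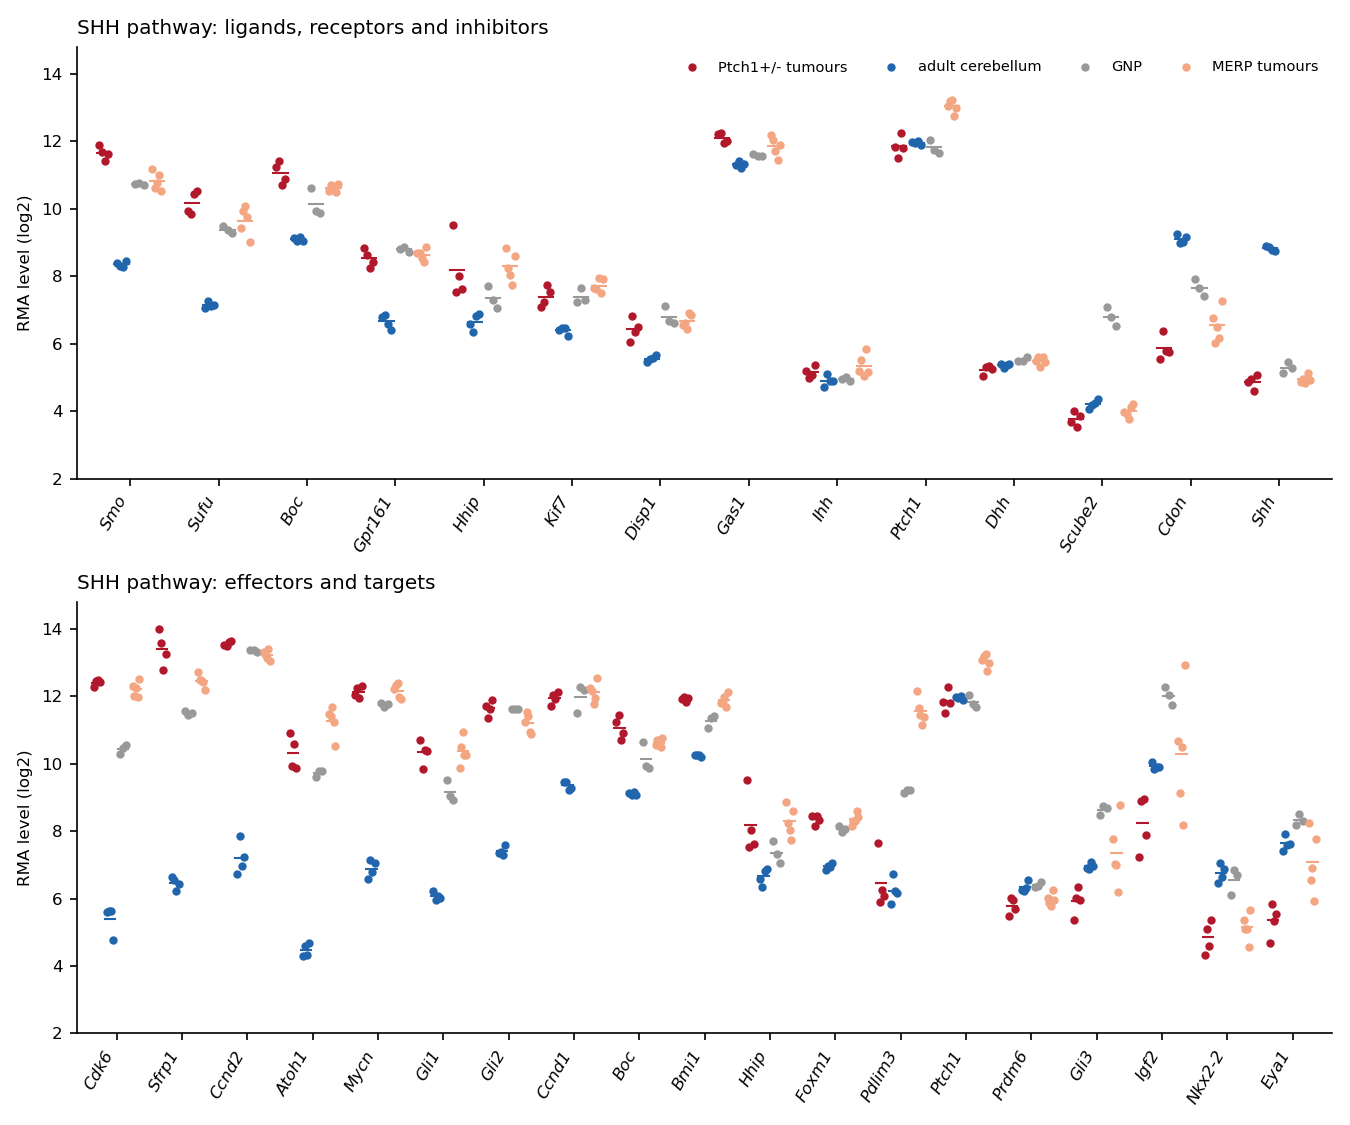
RMA level (log2, vertical axis) of every measured SHH pathway gene in each Ptch1+/- tumour, adult cerebellum, GNP sample and MERP tumour, with lines at group means and genes ordered by the difference of tumours from adult cerebellum. Smo and Gli1 lie well above adult cerebellum in all 4 tumours, Ptch1 overlaps with it, and Shh and Cdon lie below it.

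Genes of cell division were among the largest increases. Of 31 measured genes of mitosis, 29 were higher, with a median difference of 4.95, and of 31 genes of DNA replication 30 were higher and 0 lower, with a median of 2.97. The largest increase of all genes tested was that of Mki67, whose protein Ki-67 marks dividing cells. It read 13.45, 13.20, 13.30 and 13.24 in the tumours and 3.95, 5.75, 4.70 and 4.62 in adult cerebellum, a 373-fold difference (8.54, SE 0.25, adjusted p = 4.43e-17). Top2a, the topoisomerase that untangles chromosomes, was at 12.18 to 12.30 in the tumours and 4.73 to 6.12 in adult cerebellum (6.89, SE 0.19), and its 2 other probe sets gave -0.28 and 3.86. The spindle gene Aspm was higher by 6.98 (SE 0.22), the kinetochore gene Cenpf by 6.71 (SE 0.23), the cohesin acetyltransferase Esco2 by 6.71 (SE 0.20) and the mitotic kinesin Kif2c by 6.49 (SE 0.15), and all of these were near background in adult cerebellum.

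Among replication genes, Uhrf1, which passes DNA methylation on to new strands, was higher by 6.38 (SE 0.15), Rrm2, a subunit of ribonucleotide reductase, by 5.92 (SE 0.16), and the helicase subunits Mcm3 and Mcm6 by 5.52 (SE 0.14) and 5.39 (SE 0.16). Cyclin E1 (Ccne1) was the member that did not pass (0.11, adjusted p = 0.604). Pttg1, which encodes securin, the guard of sister chromatids, was lower at -1.58 (SE 0.23), at 10.19 to 11.44 in the tumours against 12.27 to 12.44. Anln, an actin-binding protein of cell division, did not pass (0.23, adjusted p = 0.239), and its second probe set gave -1.76.

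Since these genes moved together, their promoters are shown for the 250 bases before the RefSeq start site (build GRCm38.p6), which 14453 of the 18194 genes matched. For Mki67 (chr7:135716380-135716629, minus strand) and Top2a (chr11:99024190-99024439, minus strand), mitosis genes, capitals mark TTTGAA, the cell cycle homology region (CHR), and CCAAT, on either strand. For Uhrf1 (chr17:56304063-56304312, plus strand) and Mcm6 (chr1:128359706-128359955, minus strand), replication genes, capitals mark the E2F letters TTTCGCGC or TTTGGCGC on either strand, and the first run in Mcm6 joins a match on each strand. CCAAT also occurs in both of these promoters but is not marked there.
Mki67: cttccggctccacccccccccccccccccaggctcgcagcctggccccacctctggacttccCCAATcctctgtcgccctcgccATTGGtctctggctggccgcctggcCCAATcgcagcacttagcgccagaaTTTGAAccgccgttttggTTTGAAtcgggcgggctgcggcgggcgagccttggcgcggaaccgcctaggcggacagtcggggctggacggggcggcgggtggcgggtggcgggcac
Top2a: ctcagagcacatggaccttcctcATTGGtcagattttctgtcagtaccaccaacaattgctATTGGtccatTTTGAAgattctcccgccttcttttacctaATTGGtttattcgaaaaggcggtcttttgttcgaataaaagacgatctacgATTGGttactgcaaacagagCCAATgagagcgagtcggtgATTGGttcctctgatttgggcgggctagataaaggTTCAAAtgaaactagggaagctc
Uhrf1: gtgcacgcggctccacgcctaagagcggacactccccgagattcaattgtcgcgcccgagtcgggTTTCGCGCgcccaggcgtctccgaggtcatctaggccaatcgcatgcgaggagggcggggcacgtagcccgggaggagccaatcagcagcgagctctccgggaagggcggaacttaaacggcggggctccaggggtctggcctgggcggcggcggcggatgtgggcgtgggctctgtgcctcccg
Mcm6: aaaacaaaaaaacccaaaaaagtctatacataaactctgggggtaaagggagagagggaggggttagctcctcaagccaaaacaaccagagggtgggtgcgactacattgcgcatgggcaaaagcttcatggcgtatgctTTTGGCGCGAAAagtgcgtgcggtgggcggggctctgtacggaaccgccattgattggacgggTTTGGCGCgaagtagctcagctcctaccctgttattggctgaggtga

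TTTGAA was found in 9 of 26 mitosis promoters (34.6%) and in 14.1% of all 14453, and CCAAT in 17 (65.4%) against 39.4%. CCAAT was as frequent in the replication promoters, at 17 of 26 (65.4%), whereas TTTGAA was in 3 of them (11.5%). The E2F letters were found in 6 of 26 replication promoters (23.1%) against 1.2% of all. When the 50 bases after the start were included, the mitosis promoters with TTTGAA numbered 18 (69.2%, against 15.7% of all) and the replication promoters with E2F letters 10 (38.5%, against 1.45%). Of the genes at least 4-fold higher, 3.81% of 551 promoters held the E2F letters, and of those at least 4-fold lower 0.707% of 990. In the same order, CCAAT was in 47.0% and 40.8%, and TTTGAA in 17.1% and 13.8%. GACCACCCA, letters that GLI proteins bind, was in 0 of 11 promoters of SHH factors and targets and in 0.214% of all. These are matches of letters and not mapped binding sites.

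Regulators of the cell cycle moved with these genes. Of 13 E2F and pocket protein genes 9 were higher, led by the repressors E2f8 (4.21, SE 0.18) and E2f7 (4.10, SE 0.18) and the activators E2f2 (3.66, SE 0.18) and E2f1 (3.48, SE 0.22). E2f6 was lower (-0.94, SE 0.11), as was the pocket protein gene Rbl2 (-0.52, adjusted p = 0.0355), a call lost when any array but that of tumour 1 was left out (-0.39 to -0.53). Of 7 inhibitors of cyclin-dependent kinases, 4 were higher. Cdkn2a, a tumour suppressor that brakes the cell cycle and activates p53, read 8.84, 7.77, 8.06 and 8.02 in the tumours and 4.69, 4.60, 4.15 and 4.39, near background, in adult cerebellum (3.72, SE 0.69, adjusted p = 8.32e-05). Cdkn2c, which restrains CDK4 and CDK6, was higher by 3.22 (SE 0.17) and Cdkn2b by 1.06 (SE 0.25), whereas Cdkn2d was lower at -0.84 (SE 0.14). Cdkn1a (-0.09, adjusted p = 0.833) and Cdkn1c (-0.31, adjusted p = 0.411) did not pass.

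In the MYC network, 6 of 11 genes were higher (54.5%, beside 22.4% of all genes) and 4 lower (36.4%, near the 30.8% of all genes). Besides Mycn, Myc was higher by 4.14 (SE 0.30), Mycl by 4.06 (SE 0.16) and Mxd3, a MAX partner of dividing precursors, by 3.09 (SE 0.21), and Mxd4, a partner found in resting cells, was lower at -1.24 (SE 0.16). The other probe sets of Mycl gave 0.82 and 1.17. Of 18 genes of ribosome production 15 were higher and 0 lower, with a median of 1.23. The nucleolar genes Fbl and Nop56 were higher by 2.04 (SE 0.12) and 1.98 (SE 0.16). Of 25 chromatin genes 19 were higher, among them the DNA helicase Hells (6.06, SE 0.16), Hmgb2 (4.92, SE 0.13) and the Polycomb methyltransferase Ezh2 (4.55, SE 0.14), and the Polycomb gene Cbx7 was lower (-2.02, SE 0.16). Of 13 measured p53 target genes 8 were higher (61.5%) and 3 lower (23.1%, under the 30.8% of all genes), and 2, among them Cdkn1a, did not pass. Trp53 itself was not among the 13. Eda2r, a death receptor, was at 8.50 to 9.82 in the tumours and 3.66 to 4.36, near background, in adult cerebellum (5.21, SE 0.44). Pmaip1, which encodes the pro-apoptotic NOXA, was higher by 3.35 (SE 0.34), whereas Perp was lower at -2.12 (SE 0.30). Among 14 regulators of apoptosis 7 were higher and 3 lower. Birc5 (survivin), which also serves mitosis, was higher by 6.10 (SE 0.20), Bid by 2.49 (SE 0.20) and Apaf1 by 1.95 (SE 0.14), and the caspase inhibitor Xiap was lower at -1.49 (SE 0.09).

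Factors of granule neuron precursors were mostly higher, 17 of 31, with 5 lower and a median of 1.01. Insm1, a neurogenic zinc finger factor, was at 11.71, 12.62, 11.78 and 11.78 in the tumours and 4.05 to 5.92 in adult cerebellum (7.13, SE 0.28). The chemokine receptor Cxcr4, which holds precursors at the surface of the cerebellum, was higher by 5.86 (SE 0.35), and Sox11 by 5.59 (SE 0.23). Zic1 and Zic2, granule lineage factors that mature neurons keep, did not pass (0.12 and -0.00, adjusted p = 0.795 and 0.997), with levels of 13.88 to 14.20 for Zic1 in the tumours and 13.90 to 13.98 in adult cerebellum. Neurod2, a factor of differentiating neurons, was lower at -2.15 (SE 0.27), and so was the netrin receptor Unc5c (-1.93, SE 0.36). Other genes among the 12 largest increases were Sfrp2, a WNT antagonist (7.29, SE 0.32), Igfbpl1 (7.21, SE 0.33), the axon repellent Draxin (7.02, SE 0.25) and Tox3 (6.88, SE 0.17). Dcc, the netrin receptor, was higher by 6.38 (SE 0.22) and Robo1 and Robo2, receptors of SLIT, by 3.40 (SE 0.28) and 4.03 (SE 0.51). In the axon guidance list as a whole 7 of 21 genes were higher (33.3%, beside 22.4% of all genes) and 8 lower (38.1%, beside 30.8%), the repellent Sema3a by -3.21 (SE 0.31).

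**Figure D2:**
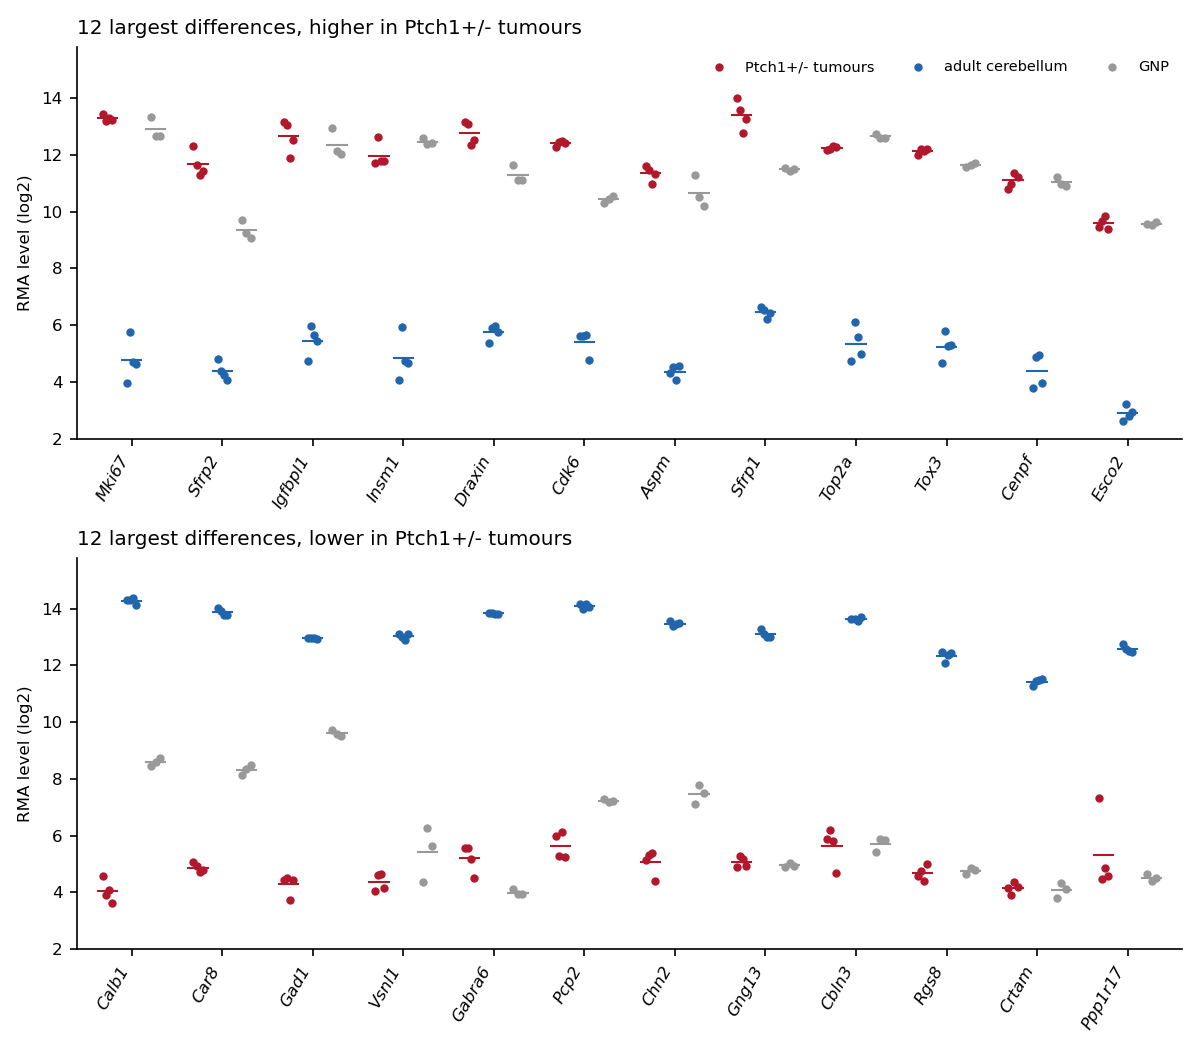
RMA level (log2, vertical axis) of the 12 genes with the largest difference in each direction, in each Ptch1+/- tumour, adult cerebellum and GNP sample, with lines at group means. Tumours and adult cerebella do not overlap for any of the 24 genes, which the choice of genes required, and the GNP mean lies within 1 log2 unit of the tumour mean for 8 of the 12 higher genes.

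Genes of mature cerebellar neurons made up most of the largest decreases. Of 12 Purkinje cell genes, 11 were lower, with a median of -6.24. Calb1, a calcium buffer abundant in Purkinje cells, fell from 14.31, 14.32, 14.38 and 14.13 in adult cerebellum to 4.59, 3.91, 4.07 and 3.61, near background, in the tumours. This was the largest difference of all genes tested (-10.24, SE 0.71, adjusted p = 6.79e-11). Car8, Pcp2 and Rgs8, also Purkinje genes, were at -9.00 (SE 0.40), -8.44 (SE 0.52) and -7.66 (SE 0.41). Ppp1r17, expressed in the same cells, was at 7.31 in tumour 1, 4.46 to 4.86 in the other tumours and 12.46 to 12.75 in adult cerebellum (-7.27, SE 0.59). Foxp2, a transcription factor counted among Purkinje genes, went the other way: it was at 9.91, 9.80, 10.11 and 9.97 in the tumours and 7.94, 7.77, 7.98 and 7.81 in adult cerebellum (2.07, SE 0.26, adjusted p = 6.01e-07), and its 5 other probe sets gave 0.81 to 3.58.

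Mature granule neurons had 17 measured genes, of which 16 were lower, with a median of -5.07. Gabra6, the GABA receptor subunit of these cells, was at 5.56, 5.57, 5.19 and 4.52 in the tumours and 13.80 to 13.86 in adult cerebellum (-8.62, SE 0.58), and the synapse organiser Cbln3 was at -8.00 (SE 0.44). The other way went Reln, a signal that granule cells secrete to guide migration, at 13.49 to 13.79 in the tumours against 12.30 to 12.57 (1.21, SE 0.24). Of 13 genes of inhibitory interneurons 11 were lower. The cell type lists share members, so their counts are not independent. Car8 is in the Purkinje and mature granule neuron lists, and Gad1 in the Purkinje and interneuron lists. Gad1, which makes GABA, was at -8.67 (SE 0.87) and near background in the tumours, parvalbumin (Pvalb) at -7.06 (SE 0.67), the vesicular GABA transporter Slc32a1 at -6.90 (SE 0.38) and Tfap2b at -5.64 (SE 0.30), while the other probe sets of Slc32a1 gave -0.20 to 0.14. Lhx1, a factor of the inhibitory lineage, was higher (1.12, SE 0.21). Of 5 unipolar brush cell genes 3 were lower, such as Eomes (-2.53, SE 0.40). Otx2, counted there and among choroid plexus genes, was higher (2.48, SE 0.42) and split the tumours, at 9.58 and 9.59 in tumours 1 and 3 and 11.11 and 11.54 in tumours 2 and 4. The other genes of the largest decreases were the calcium sensor Vsnl1 (-8.65, SE 0.92), the RAC regulator Chn2 (-8.40, SE 0.53), the G protein subunit Gng13 (-8.03, SE 0.44) and Crtam (-7.28, SE 0.32). Vsnl1 and Crtam were near background in the tumours, and a second probe set of Gng13 gave -0.04.

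The parts of the synapse were lower too, each list with 1 member higher. Of 18 genes of vesicles and release 16 were lower, among them Vamp1 (-4.37, SE 0.30), Syt2 (-4.18, SE 0.35), Syt1 (-4.07, SE 0.55) and Rims1 (-3.59, SE 0.41). The member that was higher was the fusion protein gene Stx1a, at 9.59 to 9.88 in the tumours against 7.12 to 7.44 (2.54, SE 0.23). Of 17 glutamate and GABA receptor genes 12 were lower, with Gabrd at -5.97 (SE 0.39; -0.10 by its second probe set), Gabrb2 at -5.78 (SE 0.34) and Grin2c at -5.11 (SE 0.32), and Grin2b, the NMDA receptor subunit of young neurons, was higher (2.02, SE 0.65). Grin2b was at 7.65 and 7.75 in tumours 1 and 3 and at 9.17 and 9.22 in tumours 2 and 4. Its call was lost with the 3′ to 5′ gap as a covariate (1.88, adjusted p = 0.0948). Of 15 voltage-gated channels 11 were lower, led by Kcna2 (-5.61, SE 0.35), Kcnd2 (-5.47, SE 0.52) and Scn4b (-5.29, SE 0.28), and the calcium channel Cacna1c was higher (1.61, SE 0.26), although its second probe set gave 0.25. The list of 15 neurofilament and microtubule genes was split, with 5 higher, 6 lower and 4 that did not pass. The neurofilament genes Nefh, Nefl and Nefm were lower at -6.16 (SE 0.45), -5.34 (SE 0.55) and -4.73 (SE 0.50). The microtubule proteins of young neurons Dcx (5.01, SE 0.20), Tubb2b (1.97, SE 0.18), Stmn1 (1.22, SE 0.09) and Tubb3 (1.07, SE 0.22) were higher. Other microtubule genes of the list were lower, at -1.68 to -2.5.

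Glia differed by type. All 13 measured genes of oligodendrocytes and myelin were lower, with a median of -4.26, such as Ermn (-6.80, SE 0.52), Mal (-4.68, SE 0.28) and Mog (-4.66, SE 0.37). Mobp, a myelin protein gene, was at 7.54, 4.12, 7.64 and 3.88 in the tumours, far apart among themselves, and at 12.52 to 13.15 in adult cerebellum (-6.99, SE 0.99). Genes of oligodendrocyte precursors were balanced, 4 of 10 higher and 4 lower. The 4 increases ran from 0.81 to 3.30 and the 4 decreases from -0.80 to -1.91. Pdgfra, the growth factor receptor of these precursors, was at 12.27, 12.58, 12.09 and 12.44 in the tumours and 8.99 to 9.11 in adult cerebellum (3.30, SE 0.38). The matrix proteoglycan Vcan was higher by 2.61 (SE 0.27) and Cspg4 (NG2) by 1.35 (SE 0.20). Nkx2-2 had the largest decrease (-1.91, SE 0.24) and Sox10 the smallest (-0.80, SE 0.17). Of 15 genes of astrocytes and Bergmann glia 12 were lower, with Aldoc at -5.54 (SE 0.66), Gdf10 at -4.97 (SE 0.38), the gap junction gene Gja1 at -4.42 (SE 0.35) and Hopx at -3.98 (SE 0.32). Sox9, which precursors of glia also express, was higher (1.69, SE 0.24), and Gfap (0.44, adjusted p = 0.61) and Fabp7 (-0.50, adjusted p = 0.337) did not pass.

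Markers of other cells that a tumour sample could hold varied from tumour to tumour. The mean level of 16 microglia and macrophage genes was 8.28, 7.34, 6.65 and 6.48 in tumours 1 to 4 and 6.82 to 7.0 in adult cerebellum. Of these genes 3 were higher (18.8%, beside 22.4% of all genes) and 1 lower (6.25%, beside 30.8%). Lyz2, a lysozyme of macrophages, was at 11.69, 11.43, 9.96 and 9.80 in the tumours and 7.36 to 7.66 in adult cerebellum (3.22, SE 0.34). Ptprc (CD45) was higher by 1.8 (SE 0.32), Cd68 by 1.35 (SE 0.40, the groups overlapping), and P2ry12, a receptor of resident microglia, was lower at -2.26 (SE 0.48). Without tumour 1, Csf1r passed too, at -1.24 (adjusted p = 0.00316) in place of -0.85 (adjusted p = 0.0561), and 3 genes of the list were lower (2 without adult cerebellum 2). Without tumour 4, 5 were higher. Of 13 genes of antigen presentation 1 was higher and 4 were lower (2 without tumour 4). These were 7.69% and 30.8%, beside 22.4% and 30.8% of all genes. Some genes of the list followed the split of tumours 1 and 2 from 3 and 4. B2m, the light chain of class I molecules, was at 12.30, 11.82, 10.23 and 10.23 in the tumours and 10.98 to 11.12 in adult cerebellum (0.09, adjusted p = 0.863), and H2-D1, a class I heavy chain, was at 11.41, 10.92, 9.13 and 9.28 against 11.33 to 11.49 (-1.21, SE 0.38). The call of H2-D1 (adjusted p = 0.00931) was lost without tumour 3 (-0.86) or tumour 4 (-0.91), and its 8 other probe sets gave -1.24 to 0.14.

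Choroid plexus genes, which mark the secretory epithelium beside the cerebellum, differed most. Ttr, the transthyretin gene, was at 3.78 in tumour 1, 14.66 in tumour 2, 14.33 in tumour 3 and 12.46 in tumour 4, and at 8.37 to 9.60 in adult cerebellum. The difference did not pass (2.33, SE 2.12, adjusted p = 0.395), and without tumour 1 it was 4.84 (adjusted p = 0.0291). The mean of the 8 genes of this list was 5.31, 7.97, 7.34 and 6.57 in the tumours and 5.99 to 6.30 in adult cerebellum, and Otx2 was its only member that passed, with 3 passing without tumour 1 or tumour 4. Of 15 endothelial and pericyte genes 8 were lower (5 without tumour 4), such as the transporter Abcb1a (-2.83, SE 0.24), the angiopoietin receptor Tek (-2.38, SE 0.30) and Slco1a4 (-1.96, SE 0.23). Meninges and fibroblasts were represented by 11 genes, 6 of them lower, with Ptgds at -5.22 (SE 0.44), and Igfbp2 was higher (1.15, SE 0.30). Genes of T and B lymphocytes had a mean level of 5.13 to 5.26 in the tumours and 5.04 to 5.12 in adult cerebellum. Cd3g was the 1 of these 9 genes that was higher (0.33, adjusted p = 0.0125), with 2 higher without tumour 1, and its level was near background in both groups. This was 11.1% of the list, under the 22.4% of all genes. Of 3 erythroid genes Alas2 (-0.90, SE 0.25) and Slc4a1 (-1.17, SE 0.24) were lower. Of 6 skeletal muscle genes Acta1 was lower (-1.10, SE 0.39), a call lost without tumour 4 (-1.02) or adult cerebellum 4 (-1.01). That was 16.7% of the muscle genes, under the 30.8% of all genes. The share that these cells had in any gene difference was not tested.

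**Figure D3:**
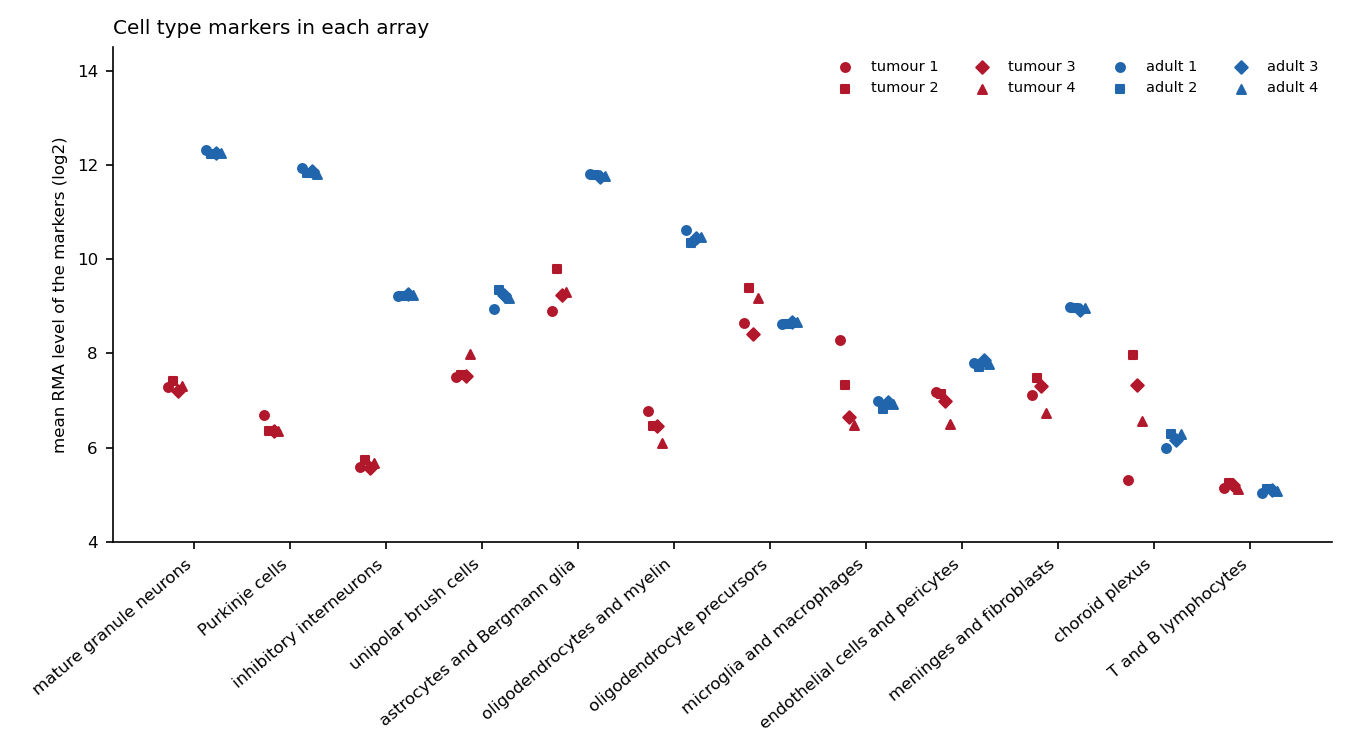
Mean RMA level (log2, vertical axis) of the markers of each cell type in each Ptch1+/- tumour (red) and adult cerebellum (blue), with the number of the tumour or cerebellum given by the symbol. Markers of mature granule neurons, Purkinje cells and myelin lie low in all 4 tumours, whereas microglia (6.48 to 8.28) and choroid plexus (5.31 to 7.97) markers spread across the tumours.

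Immediate early genes are induced quickly by stimuli and by tissue handling, and 12 of 18 were higher, with a median of 1.70. Fos was at 13.62, 12.74, 12.59 and 12.70 in the tumours and 8.99, 8.55, 8.05 and 9.40 in adult cerebellum (4.16, SE 0.40, adjusted p = 1.00e-08). Fosb was higher by 5.50 (SE 0.62) and Egr2 by 5.20 (SE 0.23), both near background in adult cerebellum, and Jun by 2.59 (SE 0.22). Arc, which neurons induce at active synapses, was lower (-1.31, SE 0.17).

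Other signalling pathways gave mixed counts. The WNT, Notch and insulin-like growth factor counts lay near the shares of all genes (22.4% higher, 30.8% lower). Of 14 WNT antagonists and targets 4 were higher and 4 lower: beside Sfrp1 and Sfrp2, the antagonist Nkd1 was higher (3.03, SE 0.29) and Wif1 lower (-2.24, SE 0.69), near background in the tumours. Of 16 BMP pathway genes 9 were lower, the inhibitory factor Id4 by -4.90 (SE 0.77), the receptor Bmpr1b by -3.11 (SE 0.29) and the ligands Bmp6 and Bmp4 by -2.06 (SE 0.22) and -1.46 (SE 0.14), and the BMP antagonist Chrd was higher (0.88, SE 0.15). In the Notch pathway 5 of 16 genes were higher, including Dll3 (3.58, SE 0.65), the ligand Jag1 (2.36, SE 0.26) and Notch2 (1.62, SE 0.24), and 4 were lower, including Hey2 (-1.62, SE 0.20). Of 11 insulin-like growth factor genes 3 were higher, such as the receptor Igf1r (1.15, SE 0.19) and Igfbp4 (1.52, SE 0.29), and 4 lower, such as Igf1 (-2.32, SE 0.17) and Igfbp6 (-2.93, SE 0.19). Of 13 primary cilium genes 10 were higher, led by Evc (3.19, SE 0.22) and Evc2 (2.26, SE 0.33), whose proteins pass the signal on from SMO, and Bbs4 was lower (-1.36, SE 0.16).

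Genes of energy metabolism were mostly lower. Of 17 glycolysis genes 14 were lower, with a median of -1.94. Eno2, the enolase of neurons, was at 4.26 to 4.93 in the tumours and 11.81 to 11.94 in adult cerebellum (-7.18, SE 0.57), and Tpi1 was at -2.91 (SE 0.33). Hk2, the hexokinase that commits glucose to use, was the member that was higher, at 12.10, 11.54, 11.97 and 12 against 8.27, 8.45, 8.58 and 8.63 (3.42, SE 0.17, adjusted p = 3.87e-13). Ldha (-0.09, adjusted p = 0.72) and the glucose transporter Slc2a3 (-0.03, adjusted p = 0.928) did not pass. All 19 genes of oxidative phosphorylation were lower, with a median of -1.03. Ppargc1a, the co-activator of mitochondrial genes, was at -4.67 (SE 0.39), and the succinate dehydrogenase subunits Sdhb and Sdha were at -1.63 (SE 0.15 and 0.17). Of 15 genes of cholesterol and fatty acid synthesis 9 were higher and 5 lower. Srebf1, the regulator of fatty acid synthesis, was at 13.23, 13.12, 12.90 and 12.85 in the tumours and 9.24 to 9.43 in adult cerebellum (3.70, SE 0.28), Srebf2, the regulator of cholesterol synthesis, was higher by 2.11 (SE 0.17), and the desaturase Scd1 was lower at -4.37 (SE 0.49).

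**Figure D4:**
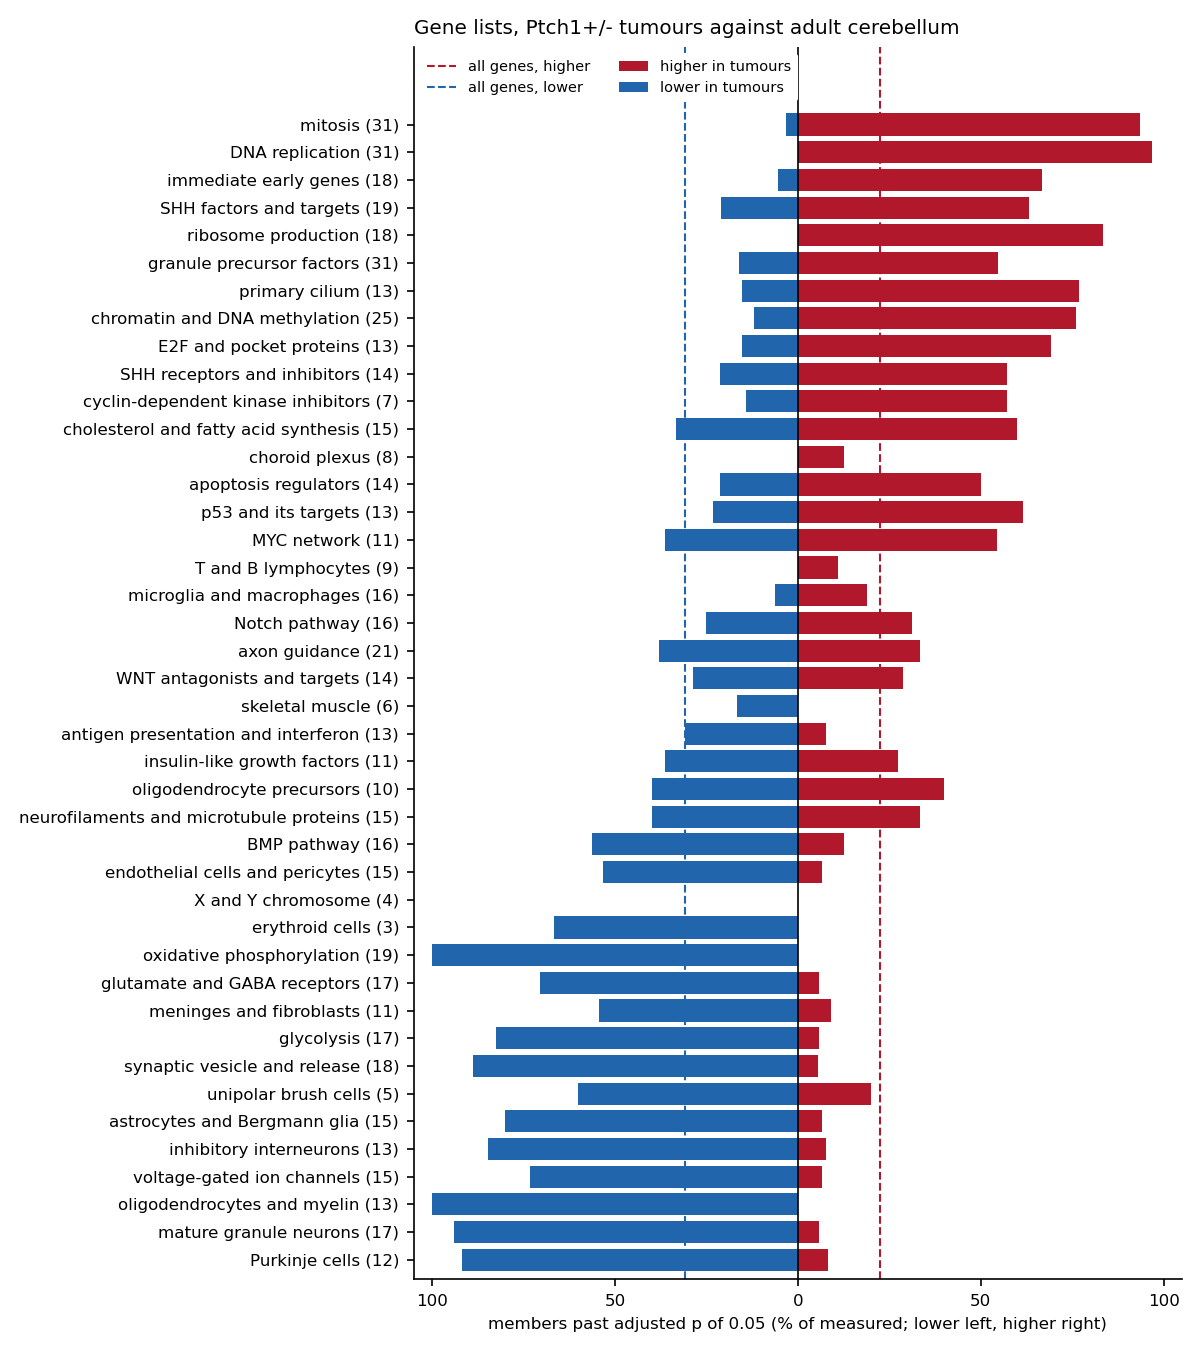
Share of the measured members of each of 42 gene lists (number in brackets) that were higher (red, to the right) or lower (blue, to the left) in Ptch1+/- tumours than in adult cerebellum at an adjusted p under 0.05, in percent. Dashed lines mark the shares over all genes, 22.4% higher and 30.8% lower, and lists are ordered by their median difference.

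GNPs and MERP tumours show where the same tumours stood against cells of the lineage. Against GNPs, 1710 genes were higher in Ptch1+/- tumours (9.4%) and 5440 lower (29.9%). On centring by the genes tested, 9398 of 11675 changed genes were higher, so that the balance turned with this scaling. It did not turn on centring by all probe sets (1282 of 7498 higher) or after quantile normalisation (1956 of 7015 higher). Of 31 mitosis genes 0 were higher than in GNPs and 19 lower, with a median of -0.43, and Mki67 did not pass (0.40, adjusted p = 0.257). The mean gene median was 7.04 in the tumours and 7.58 in GNPs. The median of the mitosis genes was no larger than this offset. These calls, and those of the genes below, were made without centring and depend on the scaling. Gli1 was higher than in GNPs by 1.19 (adjusted p = 0.000486), Smo by 0.91 (adjusted p = 0.00927), Boc by 0.92 (adjusted p = 0.00112), Sfrp1 by 1.90 (adjusted p = 0.000565), Cdk6 by 1.97 (adjusted p = 0.00205) and Cdkn2a, near background in GNPs, by 4.01 (adjusted p = 0.000196). Mycn (0.38, adjusted p = 0.168), Gli2 (0.03, adjusted p = 0.927) and Atoh1 (0.61, adjusted p = 0.1) did not pass. Several genes that were high in adult cerebellum had a middle level in GNPs, such as Calb1 at a mean of 8.59, Car8 at 8.33 and Gad1 at 9.61. Markers of meninges were lower than in GNPs for 11 of 11 genes and markers of endothelium for 12 of 15, and their part in the other differences was not tested.

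Against MERP tumours, 1107 genes were higher in Ptch1+/- tumours (6.08%) and 4711 lower (25.9%), and on centring by the genes tested 3090 of 5184 changed genes were higher. On centring by all probe sets 854 of 7331 were higher, and after quantile normalisation 1316 of 5996. Among 19 SHH factors and targets 1 was higher than in MERP tumours and 6 were lower, shares near the 6.08% and 25.9% of all genes. Gli1 (-0.02, adjusted p = 0.958), Mycn (-0.03, adjusted p = 0.912) and Ccnd2 (0.34, adjusted p = 0.16) did not pass, with levels of 9.85 to 10.71 for Gli1 in Ptch1+/- tumours and a mean of 10.36 in MERP tumours. Pdlim3, a muscle and SHH tumour gene that did not differ from adult cerebellum, was lower at -5.09 (adjusted p = 3.86e-06). Igf2 was lower at -2.04 (adjusted p = 0.0238) and Atoh1 by -0.94 (adjusted p = 0.00699), whereas Smo was higher by 0.83 (adjusted p = 0.00918).

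By chromosome, the genes of chromosome 6 stood apart. Over its 579 genes above the array median (6.09) in most arrays, the median difference from GNPs, taken relative to all such genes, was 0.374, 0.399, 0.417 and 0.392 in tumours 1 to 4. Every other chromosome lay between -0.104 and 0.068 for the mean of the tumours. Against adult cerebellum the value for chromosome 6 was 0.234, and the other chromosomes lay between -0.179 (chromosome 16) and 0.094 (chromosome 10). Against MERP tumours chromosome 6 was at 0.249 and the others between -0.057 (chromosome 12) and 0.035 (chromosome 10). Without the level filter the medians of chromosome 6 were smaller, at 0.177 against GNPs, 0.08 against adult cerebellum and 0.105 against MERP tumours. Single arrays of adult cerebellum lay between 0.07 and 0.10 from GNPs on this chromosome, and the 5 MERP tumours at 0.23, 0.08, 0.07, 0.37 and -0.02. Of all 993 genes of chromosome 6, 18.7% were higher than in GNPs at an adjusted p under 0.05, compared with 8.86% of the 17201 genes not placed on it, and 27.1% were higher than in adult cerebellum, compared with 22.1%. Tumour 1 differed from the other tumours on chromosome 8 by 0.165 over 625 genes, a value that was -0.060 to 0.019 for each of tumours 2 to 4. DNA copy number was not measured in these samples.

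**Figure D5:**
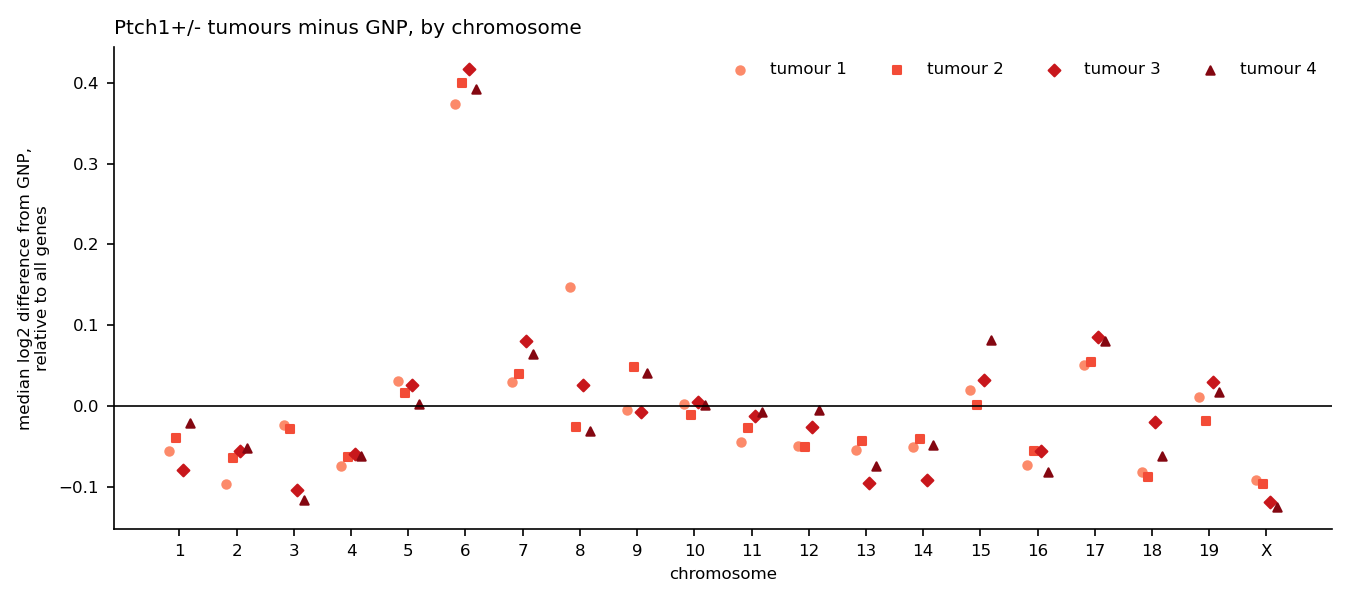
Median log2 difference of the genes of each chromosome in each Ptch1+/- tumour from the mean of 3 GNP samples (vertical axis), relative to the median of all genes above the level filter. Chromosome 6 lies at 0.374 to 0.417 in all 4 tumours, and tumour 1 stands above the others on chromosome 8.

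The 4 tumours differed from each other most in Ttr, in sex-linked genes and in a few others. The SD over the tumours exceeded 1 for 195 genes, and over the adult cerebella for 3. The X-inactivation transcript Xist was at 12.73 in tumour 3 and 5.94 to 6.20 in the others, and the Y-linked Eif2s3y at 3.14 in tumour 3 and 10.12 to 10.25 in the others, with Kdm5d and Uty in the same order. In adult cerebella 1 to 4 Eif2s3y was at 9.05 to 9.69 while Xist was at 5.64, 7.90, 7.36 and 5.99. None of these 4 genes differed between the groups by its brightest probe set (adjusted p = 0.6 to 0.711). A second probe set of Eif2s3y was at 3.70, 3.27, 3.18 and 3.36 in tumours 1 to 4 and 5.85 to 5.99 in adult cerebellum. It gave -2.54 (SE 0.17, adjusted p = 4.45e-11 over all probe sets). Otx1, a homeobox gene, was at 11.14 and 10.48 in tumours 1 and 3 and at 5.68 and 5.15 in tumours 2 and 4, near the 5.39 to 5.98 of adult cerebellum, and its call (2.47, adjusted p = 0.0472) was lost without tumour 1 (1.46), tumour 3 (1.68) or any adult cerebellum (2.39 to 2.59). The peptide transporter Slc15a2 was at 10.52 in tumour 3 and 5.44 to 5.95 in the others (adult cerebellum 8.48 to 9.69). Its call (-2.17, adjusted p = 0.0331) was lost without any of tumours 1, 2 and 4 or adult cerebella 2 and 4 (-1.67 to -2.05). Zfp182 was at 3.69 in tumour 2 and 7.30 to 8.44 in the others, Bmp5 at 7.0 and 10.40 to 11.10, and the ephrin receptor gene Epha3 at 6.97 and 9.36 to 11.79.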

How the data were processed

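Total RNA of 23 mouse samples had been extracted with the Qiagen AllPrep DNA/RNA Mini Kit and put on Affymetrix whole-genome mouse arrays. The deposited values are log2 levels that the authors computed by RMA in Affymetrix Expression Console 1.3.1, which corrects background, gives every array the same distribution and combines the probes of each probe set. Which arrays were normalised together is not given in the sources used here. The values were used as deposited, with no detection calls, and the number of arrays limits the precision.

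Of 45101 probe sets, 34958 had 1 gene in the platform annotation, 932 several and 9211 none, which left 18194 genes. A single linear model of 6 groups over 23 arrays was fitted with limma (version 3.58.1, R 4.3.3; empirical Bayes), after the code was tested on simulated data, with Benjamini-Hochberg adjustment over all genes. Of 5682 changed genes with several probe sets, 587 (10.3%) had another probe set that changed the opposite way. Summaries and exact permutation tests used Python 3.11.15, SciPy 1.17.1, numpy 2.4.6 and pandas 2.3.3. Promoters came from RefSeq (GRCm38.p6).

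The samples, 42 gene lists (580 of 633 genes measured) and the naming rule were chosen with earlier results of these data known. The rule took the 12 highest and 12 lowest genes with groups that did not overlap, all SHH genes, up to 4 of the largest called, 4 opposing and 2 uncalled members of each list, the sex-linked genes and the 12 genes with the highest SD over tumours. Some of these were then left unnamed with their values known. Alternatives were centring, quantile normalisation, other probe set rules, a filter on dim genes, eBayes with trend and robust, array weights, fewer arrays, a 2-fold minimum and the replicate block. Added after seeing the data were the 3′ to 5′ gap as a covariate, the reading of background and the chromosome values.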

Additional observations from a re-analysis of the deposited data

Results flagged for a closer look

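Of 414 groups of 4 arrays tested, 26 had an array far from the other 3 by Dixon's criterion, which chance does for about 1 in 20. Many of the gaps were small. In tumour 3, Xist was at 12.73 and Slc15a2 at 10.52, both above the other tumours, while Eif2s3y (3.14), Kdm5d (2.98), Uty (3.03) and Gad1 (3.73) were below them. Tumour 1 was highest for Ppp1r17 (7.31), Fos (13.62), Wif1 (5.49), Srebf2 (9.71) and 1700086L19Rik (9.44), and lowest for Sox11 (12.01), Nefl (5.63) and Hopx (7.87). Tumour 2 was highest for Insm1 (12.62) and lowest for Stx1a (9.59) and Nkd1 (10.22), and tumour 4 lowest for Scd1 (5.81). In adult cerebellum the lowest arrays were set apart for Cdk6 (4.76), E2f1 (6.17), Mxd4 (10.10), Perp (7.51), Gdf10 (12.01), Fabp7 (11.97), Ptgds (14.31) and Jun (10.08).

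For 52 genes, the SHH genes and those with the largest differences, the change from adult cerebellum was set beside that in MERP tumours, and it differed for 10 by a direct limma contrast. Ptch1+/- tumours exceeded MERP tumours for Sfrp2 (1.58, adjusted p = 0.000443), Sfrp1 (0.94, adjusted p = 0.0415), Smo (0.83, adjusted p = 0.00918) and Sufu (0.54, adjusted p = 0.0207). They lay below them for Pdlim3 (-5.09, adjusted p = 3.86e-06), Igf2 (-2.04, adjusted p = 0.0238), Ptch1 (-1.19, adjusted p = 5.93e-05), Eya1 (-1.72, adjusted p = 0.00283), Gli3 (-1.43, adjusted p = 0.00249) and Atoh1 (-0.94, adjusted p = 0.00699). On centring, 9 of the 10 kept direction and call, and Atoh1 did not pass (-0.66, adjusted p = 0.0533).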

How the results depend on the processing

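Against adult cerebellum, 9674 genes changed, and the count was 9090 to 9615 with each array left out in turn. It moved by more than 1.5 times with a 2-fold minimum (5004). Of the changed genes 42.0% were higher, and this became 64.2% on centring by the genes tested, 39.7% by all probe sets, 43.3% after quantile normalisation and also without dim genes, 43.4% with the probe set of highest SD, 38.8% with a 2-fold minimum and 43.2% with the 3′ to 5′ gap as a covariate (chosen after seeing the data). It was 40.5% to 42.8% with an array left out. Against GNPs the count of 7150 became 11675 on centring, 2753 with a 2-fold minimum and 3506 with the gap as a covariate, and against MERP tumours 5818 became 1092 with a 2-fold minimum. The difference in the 3′ to 5′ gap was 0.61 to 0.79 with an array left out, at p = 0.0571, the smallest that 3 against 4 allows (exact permutation test).

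Ptch1 changed sign with the mean of its probe sets (0.66) and with the one of highest SD (1.79), and Anln likewise (-0.76 and -1.76). Of 203 named genes, 172 kept direction and call in every alternative, 22 lost a call in at least 1 of them and 8 did so without a single array. Besides those given above, calls were lost on centring for Prdm6 (-0.23), Scube2 (-0.13), Rbl2 (-0.21), Alas2 (-0.59), Acta1 (-0.79) and Slc15a2 (-1.86), with the probe set of highest SD for Disp1 (0.65), Rbl2 (-0.57), E2f6 (-0.24), Xiap (-0.16), Cacna1c (0.25) and H2-D1 (-0.04), and with the gap as a covariate for Scube2, Rbl2, Alas2, Acta1, H2-D1, Otx1, Slc15a2 and Cd3g. The cause was not tested.

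Replicate numbers are shared between the groups, but not every pair of same-numbered arrays deviated together: r was -0.065 to 0.051 with adult cerebellum, -0.091 to 0.081 with GNPs, and 0.137, 0.104, 0.233 and -0.014 with MERP tumours 1 to 4, of which the first 3 correlated best with their own number. The numbers were therefore not taken to pair the samples. With the replicate block 9752 genes changed against adult cerebellum, 4979 against GNPs and 4481 against MERP tumours, and Cd68, Otx1, Slc15a2 and Cd3g lost their calls against adult cerebellum while Igf2 (adjusted p = 0.00371) and Csf1r (adjusted p = 0.044) gained one.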
